A study of Arabidopsis thaliana with 4 samples.

Results

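The PUB genes of Arabidopsis thaliana encode plant U-box proteins. The genes described here were chosen by symbol, as PUB followed by a number, and selected on signal, as a mean of 29 or more over the 4 arrays for a probe set paired with 1 gene. There were 9 PUB genes paired with a probe set, each with 1 probe set of its own, and 8 of them met the mean: PUB19, PUB22, PUB23, PUB24, PUB25, PUB26, PUB43 and PUB49. The RefSeq gene table lists 22 PUB symbols. The genes with no paired probe set were not analysed here, and the counts and rankings below cover the 8 genes, not the whole family. These 8 stand among 7327 genes that met the same mean. PUB15, the 1 gene that did not, had a mean signal of 9.27, with 12.3 and 17.2 on the overexpressor arrays (ABA and mock) and 2.39 and 5.19 on the vector arrays (ABA and mock). The member closest above the limit was PUB22, with a mean of 30.3, and the next was PUB25, with 36.6. The mean signal is therefore part of the choice and not a result.

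RNA came from rosette leaves of 3-week-old soil-grown plants, with 1 Affymetrix ATH1 array for each of 4 groups. The overexpressor groups were line 52 of plants carrying extra ERD15 in the Col-0 background, sprayed with 100 µM abscisic acid (ABA) or with the mock solution. The vector groups carried the empty pCP60 vector in Col-0 and received the same sprays. Every spray, ABA included, held 0.07% ethanol, leaves were taken 90 min later, and all seedlings had been germinated on kanamycin. Leaves of 3 plants were pooled per sample, as the labels state for every group but vector mock. The labels give neither the promoter that drives ERD15 nor the number of lines behind the name. The overexpressor samples also carry a label for a gene knock-out, against their titles, and the overexpressor reading was used. No probe set is paired with ERD15 in the annotation used, so its level was not analysed here.

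U-box proteins are E3 ubiquitin ligases: they bring a ubiquitin-loaded E2 enzyme to a target protein, using a fold like that of RING ligases but held together without zinc. Ubiquitin chains built on a target commonly send it to the proteasome. In Arabidopsis leaves several PUB proteins are known to damp responses to drought, ABA or microbial patterns. PUB19 and its close relative PUB18 are known as negative regulators of ABA and drought responses. PUB22 and PUB23 are known for damping drought responses and, together with PUB24, immune responses. PUB25 and PUB26 are known for the turnover of the immune kinase BIK1, PUB43 is a relative of SAUL1 (PUB44), and PUB49 carries a cyclophilin-type domain beside its U-box.

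The 4 arrays had medians between 39.9 and 45.8 in the deposited signal. The vector mock array stood somewhat apart. Its log2 signals correlated across genes with those of the other arrays at 0.878 to 0.902, against 0.911 to 0.935 among the others. It also had 72 genes at the floor (a signal of 13.3, to which lower values were raised), against 33 to 36 on the others. The leaf genes RCA, LHCB4.2 and PORB were at signals of 997 to 9006 over the 4 arrays. The guard cell gene FMA was at 38.4 to 61.7. No listed flower or seed marker was paired with a probe set, and the 1 paired root marker was under the mean of 29. Other tissues were therefore hardly assessed. PORB was at 997 on vector ABA against 2694 on vector mock (a log2 difference of -1.43), and RCA was at 4094 on overexpressor mock against 9006 on vector mock (-1.14). Neither passed the limma threshold for ABA or genotype, and their part in the PUB differences was not tested. In leaf tissue, fewer cells of a type and less RNA per cell cannot be told apart.

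PUB19 (AT1G60190) had the largest ABA difference of the 8 genes. Its signal was 427 on overexpressor ABA against 30.0 on overexpressor mock, and 210.0 on vector ABA against 34.6 on vector mock. Both ABA arrays lay far above both mock arrays, and the mock arrays lay close to each other. PUB19 rose by a log2 of 3.22 ± 0.30 (SE, 9.29-fold, limma adjusted p = 1.06e-22), the second-highest of the 7327 genes. The log2 difference was 3.83 in the overexpressor (14.2-fold), rank 1 of all genes, and 2.60 in vector plants (6.07-fold), rank 18. The adjusted p was 0.000702 with quantile normalization and 0.0314 without a signal trend in the error model, and the call was lost (0.945) when dim genes were kept in the fit. The size of the rise depends on dim mock arrays. With log2(signal + 16) the fitted value was 2.71, with 3.27 in the overexpressor and 2.16 in vector plants.

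**Figure D1:**
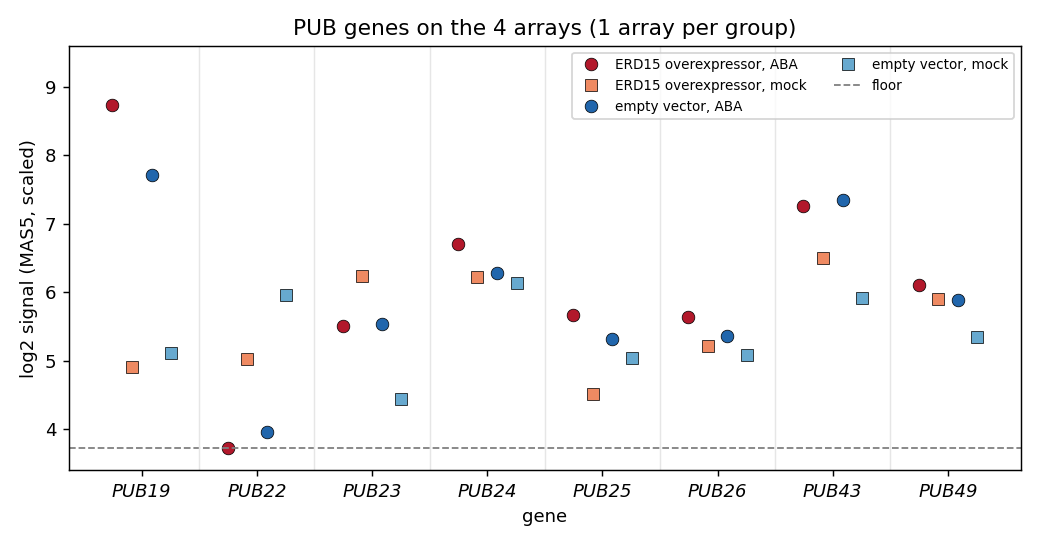
Log2 signal of each PUB gene (x axis) on each array, 1 array per group, with the floor as a dashed line. PUB19 lies at 8.74 and 7.71 on the overexpressor and vector ABA arrays, against 4.91 and 5.11 on the mock arrays, while PUB22 is at the floor on overexpressor ABA.

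PUB43 (AT1G76390) was the other PUB gene that passed the limma threshold as higher with ABA. Its signal was 154 on overexpressor ABA against 90.8 on overexpressor mock, and 163 on vector ABA against 60.5 on vector mock. Both ABA arrays were alike and above both mock arrays, which differed from each other. The fitted log2 rise was 1.09 ± 0.30 (SE, 2.13-fold, limma adjusted p = 0.0109), made of 0.76 in the overexpressor and 1.43 in vector plants. This call was lost with quantile normalization (limma adjusted p = 0.118), without the signal trend (0.416) and with dim genes kept (0.945). With log2(signal + 16) the fitted rise was 0.95, short of 2-fold.

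PUB22 (AT3G52450) had the most negative ABA difference of the 8. Its signal was 10.6 on overexpressor ABA, under the floor, against 32.5 on overexpressor mock, and 15.6 on vector ABA against 62.6 on vector mock. Both ABA arrays were below both mock arrays, by at least 2.45-fold in the overexpressor and 4.02-fold in vector plants. The fitted log2 difference was -1.65 ± 0.82 (SE) and did not pass the test (limma adjusted p = 0.527, between 0.147 and 0.945 over the other settings). PUB22 met the mean signal of the choice through its mock arrays, which averaged 47.5, whereas its ABA arrays averaged 13.1. Without vector mock its mean would have been 19.5, under the limit.

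PUB23 (AT2G35930), the close relative of PUB22, did not follow it. Its signal was 45.7 on overexpressor ABA against 75.2 on overexpressor mock, and 46.6 on vector ABA against 21.7 on vector mock. Both ABA arrays were alike and lay between the mock arrays, so the ABA difference was -0.72 in the overexpressor and 1.10 in vector plants. Their mean of 0.19 ± 0.48 (SE) did not pass (limma adjusted p = 0.999). The gap between the genotypes, -1.82 in the log2 ABA difference, has no replicate check, and rests on vector mock, the lowest array for PUB23, and on overexpressor mock, the highest.

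PUB24 (AT3G11840), which acts beside PUB22 and PUB23 in immunity, had similar signals on 3 of the 4 arrays. It was at 104 on overexpressor ABA against 74.6 on overexpressor mock, and at 77.6 on vector ABA against 70.0 on vector mock. Its fitted ABA difference of 0.31 ± 0.32 (SE) lay within its error (limma adjusted p = 0.999).

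PUB25 (AT3G19380) and PUB26 (AT1G49780) are a closely related pair. PUB25 was at 50.8 on overexpressor ABA against 22.8 on overexpressor mock, and at 40.1 on vector ABA against 32.8 on vector mock. PUB26 was at 49.8 on overexpressor ABA against 37.2 on overexpressor mock, and at 41.0 on vector ABA against 33.9 on vector mock. For both genes each ABA array lay above both mock arrays. The fitted ABA differences were 0.72 ± 0.58 for PUB25 and 0.35 ± 0.51 for PUB26 (SE), and neither passed (limma adjusted p = 0.999 for each). The ABA difference of PUB25 was 1.15 in the overexpressor, where its mock array was low, and 0.29 in vector plants. PUB25 met the mean signal of the choice through its ABA arrays, which averaged 45.4, whereas its mock arrays averaged 27.8, under the limit.

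PUB49 (AT5G67530), the cyclophilin-type member, was at 69.2 on overexpressor ABA against 59.5 on overexpressor mock, and at 59.1 on vector ABA against 40.7 on vector mock. The overexpressor arrays and vector ABA were close, and vector mock was lower. Its ABA difference of 0.38 ± 0.39 (SE) did not pass (limma adjusted p = 0.999).

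**Figure D2:**
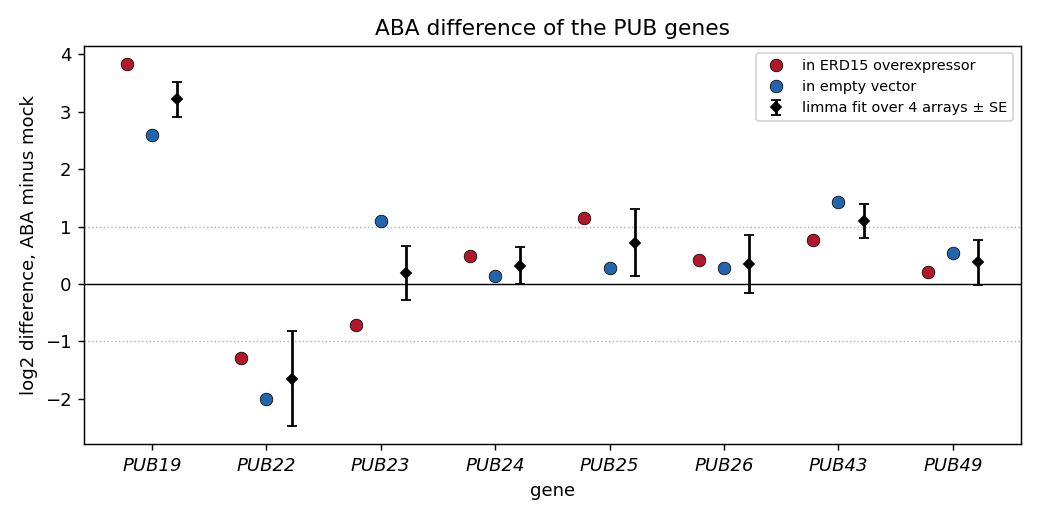
Log2 difference of ABA minus mock for each PUB gene (x axis), in the overexpressor (red) and in vector plants (blue), 1 array against 1 each, with the limma fit over the 4 arrays as a diamond and its SE as a bar. PUB19 lies at 3.83 and 2.60, PUB22 is below -1 in both genotypes, and PUB23 takes opposite signs.

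Over the members together, 2 of the 8 genes, PUB19 and PUB43, passed the limma threshold as higher with ABA (adjusted p under 0.05 over all genes), where 1.68% of all genes did. As lower with ABA, 0 of 8 passed, where 1.45% of all genes did. Of the lower genes, 1, PUB22, had an unadjusted limma p under 0.05, as 4.37% of all genes had on the lower side. This limma p was 0.0454, against 0.0562 with no filter and 0.0687 with the 10th-percentile floor. It was under 0.05 in the other fits that kept PUB22. By size alone, PUB19 was at least 2-fold higher in both genotypes, as 0.969% of all genes were, and PUB22 at least 2-fold lower in both, as 1.05% were. In the overexpressor, PUB19, PUB22 and PUB25 were at least 2-fold different with ABA in either direction (8.58% of all genes); with log2(signal + 16) PUB22 was at -0.87 and PUB25 at 0.78, and with quantile normalization PUB25 was at 0.94, all short of 2-fold. In vector plants these were PUB19, PUB22, PUB23 and PUB43 (10.2% of all genes), of which PUB23 was at 0.73 with log2(signal + 16). The ABA difference was above 0 in both genotypes for 6 of the 8 genes, against 23.5% of all genes, and for 3 of them, PUB24, PUB26 and PUB49, each such difference was at most 0.54. The median ABA difference was 0.36 over the 8 genes and -0.01 over all 7327. These counts describe 8 genes chosen partly on signal, which PUB25 met through its ABA arrays and PUB22 through its mock arrays. The family was chosen with earlier results of these data known. PUB19 was already known to stand out, and the rule of the choice named PUB19 and PUB43 as examples. The count of 2 that passed is therefore not independent of the choice.

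**Figure D3:**
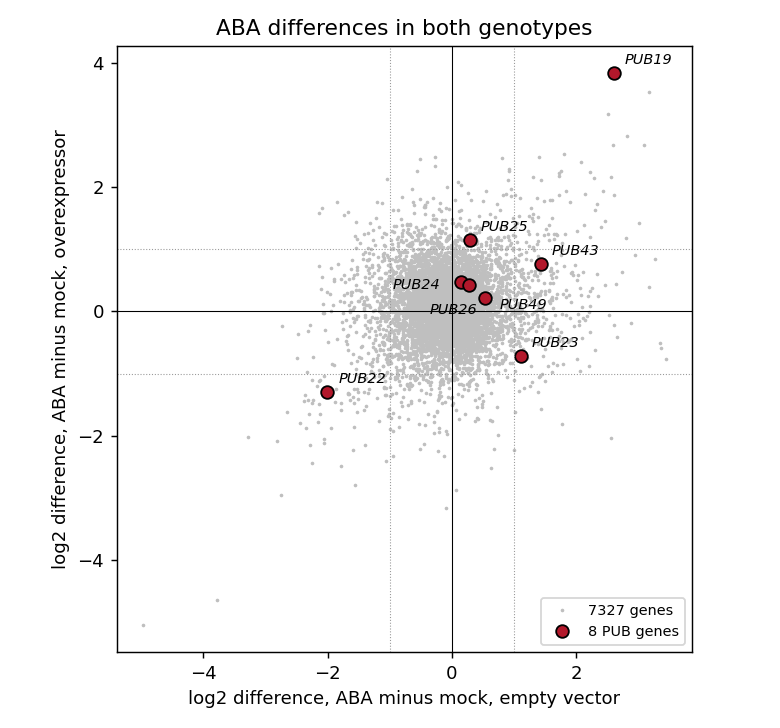
Log2 difference of ABA minus mock in vector plants (x axis) against that in the overexpressor (y axis), for 7327 genes in grey and the 8 PUB genes in red, with dotted lines at 2-fold. PUB19 is the highest point on the y axis, PUB22 lies in the lower left, and the other PUB genes lie closer to the centre.

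The genotype comparison asks whether ERD15 overexpression changed the PUB genes. None of the 8 passed the limma threshold for genotype, where 1.62% of all genes did, and 0 of the 8 had an unadjusted p under 0.05, as 8.73% of all genes had; the lowest unadjusted limma p was 0.0646, for PUB23. The count past the threshold was also 0 in each of the other fits listed below. Of all genes, 5 passed for genotype with quantile normalization, 1 without the signal trend and 0 with no filter. With such small shares of all genes passing, a count of 0 of 8 says little about these genes. No PUB gene differed by 2-fold or more under ABA and under mock with the same sign, as 0.696% of all genes did.

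Under ABA, PUB19 was the 1 member at least 2-fold different between the genotypes (6.06% of all genes), with a log2 difference of 1.02 (0.92 with arrays centred on the median and 0.97 with log2(signal + 16)): 427 in the overexpressor against 210.0 in vector plants. Under mock its difference was -0.21 (0.02 with quantile normalization), so its larger ABA difference in the overexpressor, by 1.23, lay mostly on the ABA arrays. Under mock, PUB23 was the 1 member past 2-fold (10.3% of all genes), with a log2 difference of 1.79: 75.2 in the overexpressor against 21.7 in vector plants. Under ABA its difference was -0.03. The fitted genotype differences were 0.41 ± 0.30 for PUB19 and 0.88 ± 0.48 for PUB23 (SE; limma adjusted p = 0.866 and 0.637).

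PUB22 had the most negative fitted genotype difference, -0.59 ± 0.82 (SE, limma adjusted p = 0.984), with -0.23 or lower under ABA, where the overexpressor is at the floor, and -0.95 under mock. The other 5 members ranged from -0.09 (PUB25) to 0.39 (PUB49), with SEs between 0.30 and 0.58. Vector mock was the lowest array for 5 of the 8 genes, PUB23, PUB24, PUB26, PUB43 and PUB49, against 25% (1833) of all 7327 genes. The part of that array in the differences it enters was not tested.

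**Figure D4:**
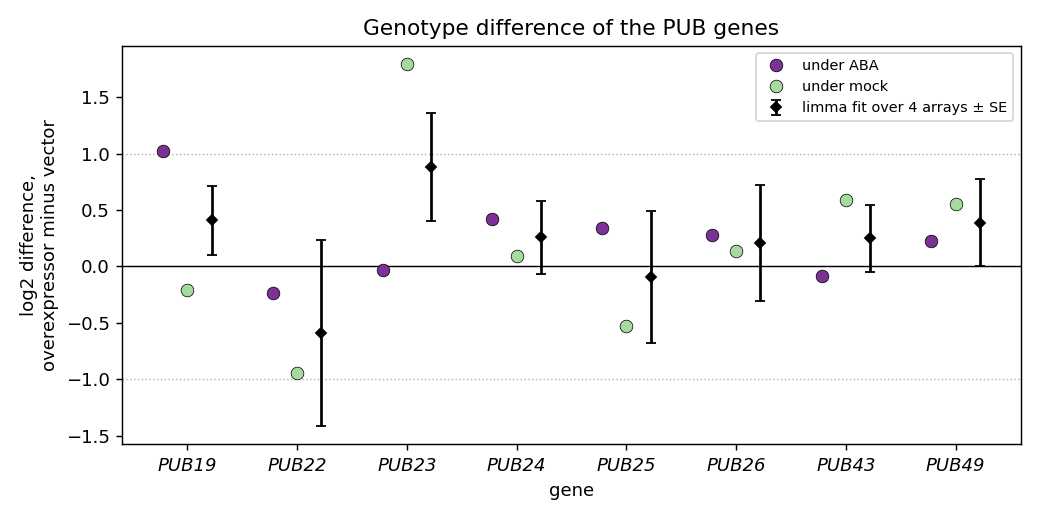
Log2 difference of overexpressor minus vector for each PUB gene (x axis), under ABA (purple) and under mock (green), 1 array against 1 each, with the limma fit as a diamond and its SE as a bar. PUB19 differs under ABA (1.02), PUB23 under mock (1.79), and the fitted values of the other 6 genes lie between -0.59 and 0.39.

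The profiles of the PUB genes over the 4 arrays were compared as the Euclidean distance between log2 signals centred on each gene's mean. PUB24 and PUB26 had the most alike profiles (distance 0.11), followed by PUB26 and PUB49 (0.30). These 3 genes changed little, with fitted ABA differences of 0.31, 0.35 and 0.38 (PUB24, PUB26 and PUB49). Small distances between such flat profiles do not show a shared response. The pair PUB22 and PUB23 was far apart (2.68), and PUB25 and PUB26 were at 0.60. PUB19 was closest to PUB43 among the 8 (2.33) and most distant from PUB22 (4.97).

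Among all genes, the 5 whose profiles lay nearest to that of PUB19 were AT1G73480 (distance 0.78), AT1G52000 (0.89), XTH18 (1.02), EXPA16 (1.02) and ZW9 (1.03). XTH18 encodes a xyloglucan endotransglucosylase/hydrolase and EXPA16 an expansin, both of the cell wall. AT1G73480 was at 623 on overexpressor ABA against 88.1 on overexpressor mock, and at 568 on vector ABA against 80.6 on vector mock. Its ABA difference was the same in both genotypes, 2.82. That of XTH18 was 3.17 in the overexpressor and 2.51 in vector plants. AT1G52000 was at the floor on the mock array of each genotype, so its differences of 2.68 and 2.60 (overexpressor and vector) are lower limits. It met the mean signal of 29 through its ABA arrays, at 85.0 and 80.1, against 12.0 and 1.83 on mock (overexpressor and vector). Its ABA difference, and so its place among these 5 genes, is therefore not independent of that mean.

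**Figure D5:**
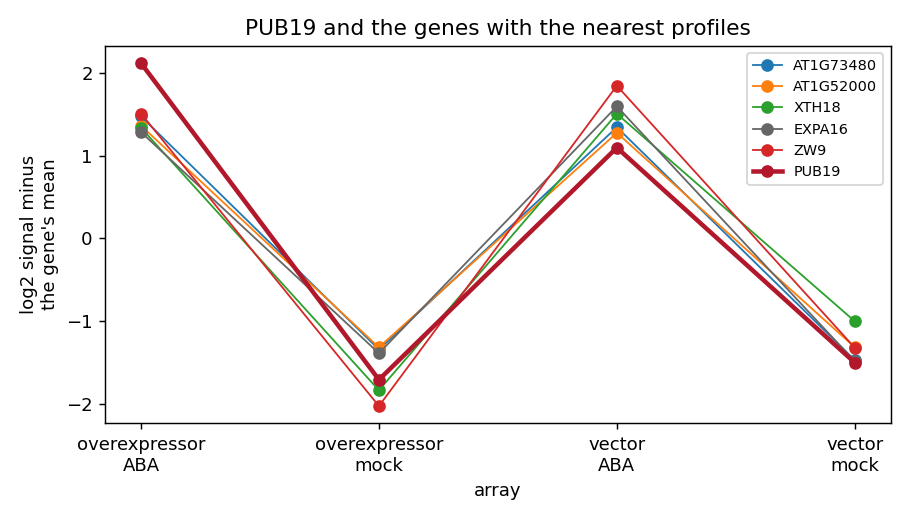
Log2 signal minus the gene's mean over the 4 arrays (y axis) for PUB19 (thick line) and the 5 genes at the smallest distance from it, by array (x axis); lines join the values of a gene and mark no order. PUB19 is the highest of the 6 on overexpressor ABA and the lowest on vector ABA.

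Other genes of the ubiquitin system were taken from lists by symbol. Of 10 measured E2 enzymes, which hand ubiquitin to U-box and RING ligases, 0 passed for ABA or genotype. Of all genes, 1.68% passed as higher with ABA, 1.45% as lower and 1.62% for genotype. A count of 0 of 10 therefore says little about these genes, and the same applies to the smaller lists below. The ABA differences of the E2 genes ranged from -0.28 (UBC19) to 0.55 (UBC32), with a median of 0.20. They were above 0 in both genotypes for 4 of the 10, against 23.5% of all genes. UBC32, an E2 of the endoplasmic reticulum, was at 323 on overexpressor ABA against 220.1 on overexpressor mock, and at 283 on vector ABA against 194 on vector mock. Its difference was alike in both genotypes, 0.55 and 0.54, and did not pass (0.55 ± 0.27 SE, limma adjusted p = 0.519).

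The U-box genes MAC3A and MAC3B, whose products belong to a spliceosome-associated complex, had ABA differences of -0.41 ± 0.29 and -0.12 ± 0.27 (SE), and neither passed for ABA or genotype (limma adjusted p = 0.954 and 0.999 for ABA). Both were lower with ABA in each genotype. Of the reported partners of PUB proteins, 2 were measured, and neither passed for ABA or genotype. BIK1, the kinase turned over by PUB25 and PUB26, had an ABA difference of -0.01 ± 0.29 and the proteasome subunit gene RPN12a, whose product is known to bind PUB22 and PUB23, 0.01 ± 0.28 (SE). XERICO, a RING-type gene known for raising ABA levels, and CUL4, a cullin, had -0.04 ± 0.28 and -0.14 ± 0.27 (SE), and likewise did not pass. No gene of the ubiquitin, E1 and other proteasome lists was measured.

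The p-values rest on 1 array per group. The additive model has 1 residual degree of freedom and takes any difference of the ABA response between the genotypes as error. As the prior degrees of freedom were infinite, each SE came wholly from genes of like signal. A gene's own gap between the genotypes therefore did not widen its SE. PUB23, with a gap of -1.82, had an SE of 0.48, and PUB26, with a gap of 0.14, had 0.51. The p-values do not measure variation between plants.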

How the data were processed

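The deposited table holds 1 linear signal intensity per probe set and array. Per the submitters' processing notes MAS5 made these values; its version and target are not given in the sources used here. No detection calls were used. The platform annotation pairs 13513 of 22810 probe sets with 1 gene, and 13436 of these matched the TAIR10.1 RefSeq table, used for locus tags and gene order only.

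The arrays were brought to a 2%-trimmed mean of 100, the pooled 25th percentile served as floor, and values were put on the log2 scale. The brightest probe set stood for a gene, and genes with a mean signal under 29 were left out. limma 3.58.1 in R 4.3.3 was fitted to genotype and treatment over all genes, with a signal trend in eBayes (the prior degrees of freedom were infinite) and Benjamini-Hochberg adjustment at 0.05. The step was tested on simulated data with independent noise, drawn from the fitted SEs, and additive ABA differences. Such data meet the model by construction, so the test does not check the p-values on the real arrays. Differences between 2 single arrays have no test.

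The members, lists and rules were chosen with earlier results of these data known; the rule gave in full members past a threshold, the extremes, and the 5 profiles nearest to the top member. Alternatives were quantile or median scaling, no trend, no filter or a 60th-percentile filter, a 10th-percentile floor, log2(signal + 16), averaged probe sets, and leaving out vector mock.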

Additional observations from a re-analysis of the deposited data

Results flagged for a closer look

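Differences of opposite sign in the 2 genotypes or under the 2 treatments were marked for 4 PUB genes. Each compares single arrays, and the difference was not tested. PUB23 was lower with ABA in the overexpressor and higher in vector plants, so its log2 ABA difference was smaller in the overexpressor by -1.82; equally, its genotype difference under ABA minus that under mock was -1.82. For PUB19 the genotype difference under ABA minus that under mock was 1.23 (1.06 with quantile normalization, under which both were above 0). It was 0.87 for PUB25 and -0.67 for PUB43.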

How the results depend on the processing

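The count of PUB genes past the limma threshold for ABA, 2, was 1 with quantile normalization and 1 without a signal trend (PUB19 in both), and 0 with no filter on dim genes, where limma called 0 of 13356 genes and 641 had an unadjusted p under 0.05. Over all genes the ABA calls were 229, against 90 with quantile normalization and 9 without the trend, and the genotype calls were 119, against 5 and 1; with no filter 0 genes were called for genotype too (562 with an unadjusted p under 0.05), and the other settings gave 215 to 231 and 105 to 117. Of the PUB genes at least 2-fold different with ABA in both genotypes, 2, there was 1 with the 60th-percentile filter, which drops PUB22, and 1 with log2(signal + 16). Without vector mock only 1 pair of arrays is left for each comparison, so 3 PUB genes at 2-fold with ABA (overexpressor only) and 1 between genotypes (ABA only) cannot be set against the counts of 2 and 0 over both pairs. The median ABA difference of 0.36 was 1.09 over the 3 genes that passed the 60th-percentile filter, 0.28 with log2(signal + 16) and 0.45 without vector mock. Leaving out vector mock turned the ABA difference of PUB23 to -0.72 and the genotype differences of PUB23, PUB25 and PUB43 to -0.0307, 0.34 and -0.0843; the cause was not tested. No other fitted difference of a PUB gene changed sign under these settings. Low signals limit PUB22, PUB23 and PUB25, whose lowest arrays were at 10.6, 21.7 and 22.8, against a floor of 13.3. The folds of PUB19 also rest on dim mock arrays, at 30.0 in the overexpressor and 34.6 in vector plants. No paired analysis was possible because each group has 1 array and no replicate numbers pair them; the additive fit itself compares ABA with mock within each genotype.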

Other observations

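Of the 16 protein-coding genes next to the 8 PUB genes in the gene order of the RefSeq table, 6 were measured. None of the 6 passed the limma threshold for ABA, where 1.68% of all genes passed as higher and 1.45% as lower. The fitted log2 ABA differences of the 6 ranged from -0.50 to 0.52. The gene after PUB19, AT1G60200, had a difference of -0.23, and those on either side of PUB43, AT1G76380 and AT1G76400, had 0.13 and -0.27.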
